A study of Homo sapiens with 24 samples.

Results

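Polyamine synthesis and the methionine salvage that follows from it were described here through 10 genes: ODC1, AMD1, SRM, SMS, SAT1, OAZ1, AZIN1, SMOX, PAOX, and MTAP. They were found by symbol among the 26645 gene entries of the raw count table, all 10 were present, and all 10 passed the low-count filter that left 14741 genes to be tested. RNA came from 2 human cell lines. MB468 is MDA-MB-468, an established epithelial line of triple-negative breast cancer that needs methionine (Met) to proliferate, and MB468res-R8 is 1 clone derived from it by long culture in homocysteine (Hcy) medium, which proliferates without Met. The 0 h groups grew in Met+ medium (100 µM Met). The others were harvested 0.5, 2, or 12 h after transfer to Met-Hcy+ medium, in which 370 µM Hcy replaced Met, so that there were 8 groups of 3 libraries. All groups shared the same base medium with dialyzed serum, vitamin B12, glutamine, and cysteine. Met+ medium was sampled at 0 h alone, so that at 0.5, 2, and 12 h the change of medium and the time in culture cannot be told apart from Met stress. Since MB468res-R8 is a single clone, differences between the lines cannot be told apart from differences between clones.

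Polyamines are small positively charged molecules that bind nucleic acids and that growing cells need. Ornithine decarboxylase makes putrescine, and spermidine synthase and spermine synthase lengthen it with aminopropyl groups taken from decarboxylated S-adenosylmethionine, so that the pathway draws on Met. Each transfer leaves methylthioadenosine, which MTAP cleaves as the first step of a route that rebuilds Met. Acetylation and oxidation run the pathway in reverse, and antizyme, whose own translation rises with polyamines, sends ornithine decarboxylase to the proteasome. Much of this control acts on translation and protein stability, which RNA counts do not measure.

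Libraries held 11713037 to 36402932 gene counts (median 20452800), and spike-in RNAs took between 0.201% and 0.303% of the counts. Of 7 breast epithelial markers, KRT5, KRT8, KRT18, KRT19, EGFR, EPCAM, and CDH1 all stood at 255 CPM (counts per 1000000 library counts) or more in every library. PGR reached at most 0.0983 CPM and PTPRC at most 0.199 CPM, ESR1 lay between 4.15 and 22.6 CPM, and COL1A1 between 14.6 and 73.2 CPM. Replicate 2 of MB468 at 2 h stood apart, with 8251 counts of the small nuclear RNA RN7SK against 44 to 357 in the other 23 libraries. Leaving it out changed no call at 2 h for any of the 10 genes. Normalized counts below are raw counts divided by a library size scaled with TMM factors and brought to a common depth. Tests are those of edgeR's quasi-likelihood model with the 8 groups fitted together, and genes with a p under 0.05 after Benjamini-Hochberg adjustment over all tested genes are referred to as called. Nothing in the sources used here ties a replicate number to a shared culture or day, so the p-values measure the spread between these libraries.

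The scaling matters for the reading of all later values, since the spike-in RNAs allow a second one. With libraries scaled to their spike-in totals, the median log2 difference of all tested genes moved from about 0 to -0.31 for MB468res-R8 minus MB468 at 0 h, and to -0.20, -0.42, and -0.23 for MB468 at 0.5, 2, and 12 h against 0 h. In MB468res-R8 the same medians were 0.04 at 0.5 h and -0.04 at 2 h, and 0 to 2 decimals at 12 h. Changes under TMM scaling are therefore changes relative to the bulk of the genes. The spike-in share also varied within groups, at 0.214%, 0.277%, and 0.288% in MB468res-R8 at 0.5 h. In these 3 libraries SAT1 gave 4582, 4527, and 4496 normalized counts under TMM scaling, and 5446, 4171, and 4003 when scaled to spike-ins. A call lost under spike-in scaling thus need not mean a smaller estimate, and the reason for each loss was not tested.

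Sequence upstream of the start site is shown for the 3 genes whose RNA carried the contrasts described below, SRM and SAT1 with the largest ranges and ODC1 with the early fall. RefSeq on GRCh38.p14 gave promoters for 7 of the 10 genes (ODC1, AMD1, SRM, SMS, SAT1, OAZ1, and MTAP). SMOX, PAOX, and AZIN1 are named only. The E-box CACGTG, its own reverse complement and a motif bound by MYC with MAX, lies in 7.26% of the 35116 RefSeq promoters, which cover 250 bases before to 50 after each start, and among the 7 genes with a promoter it was found in SRM and ODC1. The core of the amino acid response element, searched as TGATGNAA on both strands, lies in 3.62% of promoters and was in none of the 7. These shares count promoters, 35116 for 27305 genes, and are not shares of genes. Capitals mark the E-box, and the lines run 5′ to 3′.
SRM, chr1:11060019-11060268, minus strand: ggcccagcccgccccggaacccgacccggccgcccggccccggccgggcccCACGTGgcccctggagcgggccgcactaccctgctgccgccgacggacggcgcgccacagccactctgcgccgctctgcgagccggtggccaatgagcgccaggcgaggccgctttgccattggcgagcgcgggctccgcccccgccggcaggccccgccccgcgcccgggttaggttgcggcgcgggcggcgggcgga
SAT1, chrX:23782923-23783172, plus strand: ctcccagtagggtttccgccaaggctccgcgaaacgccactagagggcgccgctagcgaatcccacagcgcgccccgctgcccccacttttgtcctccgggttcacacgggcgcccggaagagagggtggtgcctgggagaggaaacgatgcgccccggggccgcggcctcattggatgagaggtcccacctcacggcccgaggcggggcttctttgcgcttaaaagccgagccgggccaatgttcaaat
ODC1, upstream start, chr2:10448328-10448577, minus strand: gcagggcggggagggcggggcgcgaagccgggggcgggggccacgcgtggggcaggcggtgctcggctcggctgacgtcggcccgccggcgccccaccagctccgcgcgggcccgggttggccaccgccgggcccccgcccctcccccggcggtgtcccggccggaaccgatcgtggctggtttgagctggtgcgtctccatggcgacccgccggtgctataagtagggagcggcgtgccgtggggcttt
ODC1, downstream start, first E-box, chr2:10448024-10448053, minus strand: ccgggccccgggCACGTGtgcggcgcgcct
ODC1, downstream start, second E-box, chr2:10447990-10448019, minus strand: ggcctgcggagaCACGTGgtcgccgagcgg
The SRM E-box lies 199 to 194 bases before the start site. The 2 RefSeq starts of ODC1 lie 315 bases apart, and around the downstream one the E-box occurs 29 to 24 bases before the start and again at bases 6 to 11 after it, while the window of the upstream start holds none. A match is a description of these letters, not a bound site.

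In Met+ medium, before the transfer to Met-Hcy+ medium, the lines differed most in SAT1 and SRM, and in opposite directions. SAT1, the spermidine and spermine acetyltransferase that starts polyamine breakdown and export, was lower in MB468res-R8, and SRM, spermidine synthase, was higher. Together 8 of the 10 genes were called between the lines at 0 h, 2 higher and 6 lower in MB468res-R8, where 53.5% of all tested genes were called, 26.4% higher and 27.1% lower. The median log2 difference was -0.13 over the 10 genes and 0 to 2 decimals over all genes.

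SAT1 gave 12889, 13182, and 12886 normalized counts in the 3 MB468 libraries and 4090, 3930, and 3692 in those of MB468res-R8. The lines did not overlap, and the MB468 mean was 3.33 times that of MB468res-R8, with a log2 difference of -1.73 (SE 0.062, adjusted p = 1.27e-18 by edgeR's quasi-likelihood test). Only 2.27% of tested genes had a lower value in this comparison. Under spike-in scaling the log2 difference of SAT1 was -2.04.

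SRM gave 2469, 2556, and 2206 normalized counts in MB468 and 5056, 5014, and 4663 in MB468res-R8. Every MB468res-R8 library lay above every MB468 library, and the level was 2.03 times as high, a log2 difference of 1.02 (SE 0.050, adjusted p = 1.42e-20 by edgeR's quasi-likelihood test). It was 0.72 under spike-in scaling and remained called. SMS, spermine synthase, stood only 0.11 higher on the log2 scale (SE 0.035, adjusted p = 0.00957 by edgeR), with 5295 to 5445 normalized counts in MB468 and 5788 to 5842 in MB468res-R8. This small difference turned to -0.20 and was not called under spike-in scaling, and it lost its call without MB468 replicate 3 or without MB468res-R8 replicate 2 at 0 h.

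The other called genes were lower in MB468res-R8 at 0 h. SMOX, the oxidase that turns spermine back into spermidine, fell from a mean of 571 ± 42.8 (SD, n = 3) normalized counts in MB468 to 435 ± 51.7, a log2 difference of -0.39 (SE 0.081). ODC1, ornithine decarboxylase, the first enzyme of the pathway, stood at 5153 ± 287 and 4234 ± 371, a log2 difference of -0.28 (SE 0.053). AMD1, whose product makes the decarboxylated S-adenosylmethionine, OAZ1, which encodes antizyme, and AZIN1, the antizyme inhibitor that frees ornithine decarboxylase, differed by -0.14, -0.13, and -0.13. The call of AZIN1 was lost without MB468res-R8 replicate 2 at 0 h, with an adjusted p of 0.0509 by edgeR. MTAP did not pass the test, with a log2 difference of -0.06 and a 95% interval of -0.16 to 0.04. PAOX, the oxidase of acetylated polyamines, gave only 15.9 to 31.3 normalized counts across both lines and was not called, with an interval of -0.23 to 1.08.

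**Figure D1:**
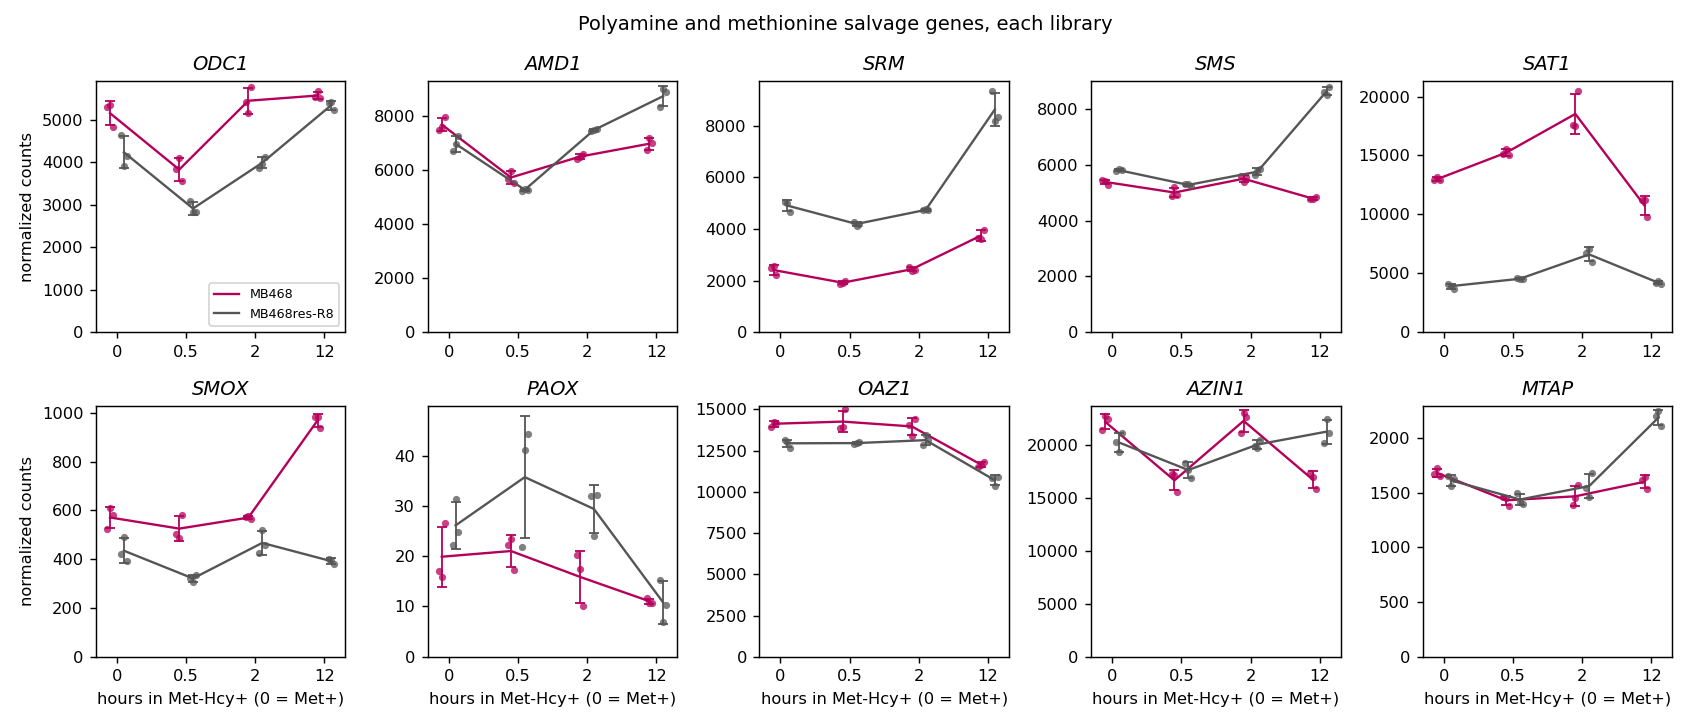
Normalized counts (vertical axes, from 0) of the 10 genes in each of the 24 libraries against hours in Met-Hcy+ medium (0 = Met+, times evenly spaced), with MB468 in magenta and MB468res-R8 in grey. Points are libraries, lines join the means, and bars are SD (n = 3). SAT1 in MB468 lies between 9804 and 20481 and in MB468res-R8 between 3692 and 7095, and SRM in MB468res-R8 at 12 h lies between 8190 and 9366.

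Levels of different genes were compared per length of the GENCODE canonical transcript, as CPM per kilobase. In MB468 at 0 h SAT1 (544 ± 7.11 CPM per kilobase, SD, n = 3) and OAZ1 (541 ± 6.61) were the most abundant and did not differ beyond their spread. AZIN1 (232), SMS (139), AMD1 (98.6 ± 3.19), ODC1 (91.5 ± 5.09), and SRM (84.1 ± 6.36) followed, and the SDs of AMD1 and ODC1 overlapped, as did those of ODC1 and SRM. MTAP (12.2) and SMOX (11.6) were close, and PAOX was at 0.478. In MB468res-R8 the order began with OAZ1 (495 ± 8.73) and AZIN1 (212), and SRM (171 ± 7.54) and SAT1 (164 ± 8.37) stood side by side within their spread. The canonical MTAP transcript is 6032 nucleotides long, and a shorter one would raise its value per kilobase. PAOX shares 1373 bases of its transcript with a readthrough gene, and OAZ1 shares 225 with JSRP1 on the other strand and 220 with a further gene. MTAP shares 460 and 123 bases with a pair of noncoding RNAs, AZIN1 shares 159, and SAT1 shares 90. The library kit does not mark strand, so reads in these stretches cannot be assigned with certainty.

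**Figure D2:**
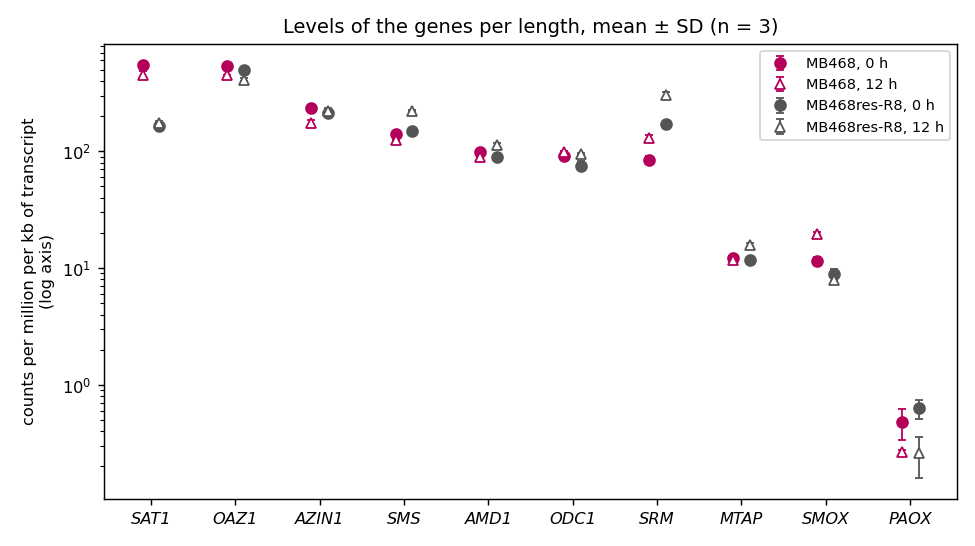
Level of each gene per length in CPM per kilobase of transcript (vertical log axis), ordered by MB468 at 0 h, as mean ± SD (n = 3). Filled circles are 0 h and open triangles 12 h, with MB468 in magenta and MB468res-R8 in grey. SAT1 drops from 544 in MB468 to 164 in MB468res-R8 at 0 h, SRM rises from 84.1 to 171, and PAOX lies below all others.

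Within 0.5 h of the media switch most of the genes fell in both lines and SAT1 rose. In MB468 7 of the 10 genes were called, 1 higher and 6 lower, where 33.9% of all tested genes were called, 17.6% higher and 16.4% lower. In MB468res-R8 8 of the 10 were called, 1 higher and 7 lower, where 33.7% of all genes were called, 17.4% higher and 16.3% lower. The same 7 genes were called in the same direction in both lines: ODC1, AMD1, AZIN1, SRM, SMS, and MTAP fell and SAT1 rose. The comparisons of the lines do not share libraries.

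ODC1 and AMD1, which feed the pathway with putrescine and with aminopropyl groups, fell in both lines by a similar amount. ODC1 went from 5295, 5341, and 4823 normalized counts to 3831, 4092, and 3555 in MB468 (log2 fold change -0.43, SE 0.053). In MB468res-R8 it went from 4644, 3921, and 4136 to 3085, 2816, and 2828 (-0.54, SE 0.054). The libraries at 0 h and 0.5 h did not overlap in either line, and adjusted p was 4.37e-08 and 3.24e-10 by edgeR's quasi-likelihood test. AMD1 went from 7488, 7594, and 7961 to 5676, 5974, and 5517 in MB468 (-0.42, SE 0.040). In MB468res-R8 it went from 6690, 6948, and 7259 to 5225, 5310, and 5268 (-0.40, SE 0.040). These falls were called under both scalings, with spike-in values of -0.64 for ODC1 and -0.64 for AMD1 in MB468 and of -0.49 and -0.36 in MB468res-R8.

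AZIN1 (log2 fold change -0.41 in MB468 and -0.20 in MB468res-R8), SRM (-0.34 and -0.23), MTAP (-0.23 and -0.16), and SMS (-0.11 and -0.14) fell as well. SMOX fell in MB468res-R8 (-0.44, SE 0.086) and was not called in MB468 (-0.13, 95% interval -0.30 to 0.03). OAZ1 was not called in either line, with log2 fold changes of 0.01 and 0.00 and intervals within -0.07 and 0.09, and in MB468 its estimate turned to -0.21 under spike-in scaling, also not called. SAT1 rose by 0.23 (SE 0.059) and 0.21 (SE 0.062), from 12889, 13182, and 12886 to 15124, 15560, and 15034 normalized counts in MB468 and from 4090, 3930, and 3692 to 4582, 4527, and 4496 in MB468res-R8. Under spike-in scaling the calls at 0.5 h were 5 in MB468, all lower, and 2 in MB468res-R8, ODC1 and AMD1. The background under that scaling leaned the same way in MB468, where 3287 of the 14741 tested genes passed and only 14% of these rose. In MB468res-R8 2023 passed, and 59% of these rose. SAT1 was called in neither line under spike-in scaling (0.02 and 0.26). No member was called for a difference between the lines in this response by edgeR, where 2.9% of all genes were (1.2% higher and 1.7% lower), with 2 at an unadjusted p under 0.05 and 1 called by DESeq2. That gene was AZIN1, whose response was 0.21 higher in MB468res-R8 (adjusted p = 0.0609 by edgeR and 0.0389 by DESeq2).

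By 2 h most of the early falls were gone under TMM scaling, and SAT1 stood higher still. Against 0 h, 3 of the 10 genes passed the test in MB468, 1 higher and 2 lower, where 16.3% of all genes were called, 8.88% higher and 7.47% lower. In MB468res-R8 1 was called, higher, where 4.37% of all genes were, 2.52% higher and 1.85% lower. SAT1 was the gene called in both lines. In MB468 it gave 17565, 17538, and 20481 normalized counts, a log2 fold change of 0.51 (SE 0.059, adjusted p = 2.42e-07 by edgeR). In MB468res-R8 it gave 6752, 7095, and 5949, a log2 fold change of 0.76 (SE 0.061, adjusted p = 2.25e-09 by edgeR). All libraries at 2 h lay above those at 0 h in both lines, and 94% of tested genes had a lower value than SAT1 in MB468. With spike-in scaling the rise remained in MB468res-R8 (0.72) and was not called in MB468 (0.09, adjusted p = 0.547 by edgeR).

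AMD1 stayed below its 0 h level in MB468 at 2 h, at 6411, 6496, and 6578 normalized counts (log2 fold change -0.24, SE 0.040). In MB468res-R8 it gave 7427, 7485, and 7519, above its 0 h libraries but not called (0.10, 95% interval 0.02 to 0.18). The response of AMD1 was the 1 difference between the lines called at 2 h, by 0.34 (SE 0.056, adjusted p = 3.13e-05 by edgeR's quasi-likelihood test), where 5.07% of all genes were called, 2.19% higher and 2.88% lower. It was 0.72 and called under spike-in scaling, against a median of 0.38 over all genes. MTAP was lower in MB468 (-0.20, SE 0.053), a call that was lost without MB468 replicate 1 at 2 h (adjusted p = 0.0516 by edgeR). Spike-in scaling called 8 genes at 2 h in MB468, all lower, among them AZIN1 (-0.41), ODC1 (-0.34), SMS (-0.39), and SRM (-0.40), whose estimates were 0.01, 0.08, 0.03, and 0.01 under TMM scaling. All of these lay near the median of all genes, -0.42, and spike-in scaling called 9511 of the 14741 tested genes, 2.52% of them higher.

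The step from 0.5 h to 2 h was compared after the data had been seen. In MB468 6 of the 10 genes rose between these times and none fell, where 32.7% of all genes were called, 16.3% higher and 16.5% lower. In MB468res-R8 7 rose and none fell, where 35.3% were called, 17.4% higher and 17.9% lower. ODC1 rose by 0.51 (SE 0.054) in MB468 and 0.45 (SE 0.054) in MB468res-R8, and AMD1 by 0.18 (SE 0.040) and 0.51 (SE 0.040). SMOX was called in MB468res-R8 (0.55, SE 0.085) and not in MB468 (0.13, SE 0.083). Of these, 4 in MB468res-R8 passed with spike-in totals, with ODC1 at 0.35, AMD1 at 0.41, SAT1 at 0.45, and SMOX at 0.45. Of all 14741 tested genes that scaling called 2380 in MB468res-R8, 35.5% of them higher, and 3696 in MB468, 18.3% of them higher. In MB468 it turned the estimates of AMD1 (-0.02), SMS (-0.07), MTAP (-0.18), and SMOX (-0.08) below 0. It called 0 of the 10 genes there by edgeR, with 1 at an unadjusted p under 0.05. DESeq2 with its own size factors called 6 of the 10 genes there, and 4673 of the 14718 genes it tested, 51.1% of them higher. The return in MB468 thus depended on the scaling.

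**Figure D3:**
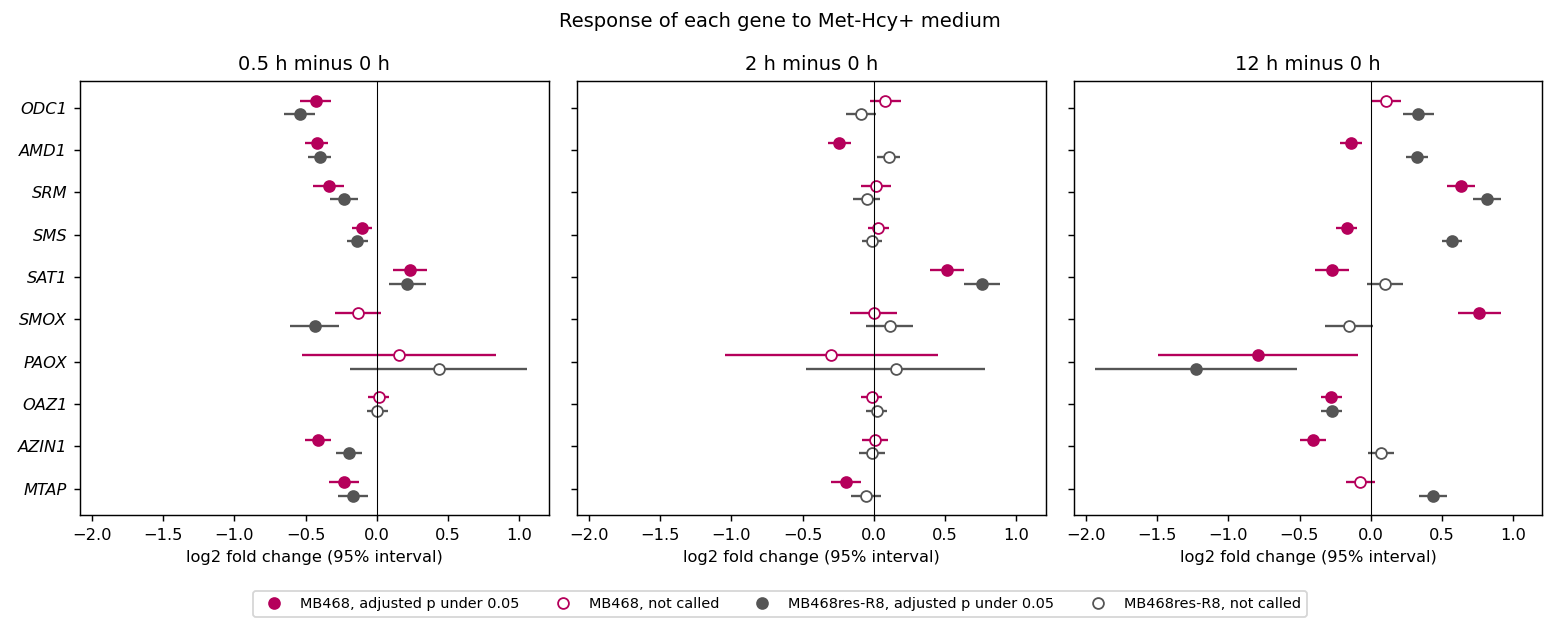
Log2 fold change against 0 h (horizontal axes, bars are 95% intervals) of the 10 genes at 0.5, 2, and 12 h, with MB468 in magenta and MB468res-R8 in grey. Filled points were called by edgeR's quasi-likelihood test and open points were not. At 0.5 h ODC1 and AMD1 lie between -0.54 and -0.40 in both lines. At 12 h SMS, MTAP, AMD1, SMOX, AZIN1, SAT1, and ODC1 have intervals that do not meet between the lines.

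At 12 h the lines diverged. SRM rose in both lines, SMS, MTAP, AMD1, and ODC1 rose in MB468res-R8, and in MB468 SMOX rose while SMS, AMD1, AZIN1, and SAT1 fell. In MB468 8 of the 10 passed the test, 2 higher and 6 lower, where 70.8% of all genes did, 36.1% higher and 34.7% lower. In MB468res-R8 7 passed it, 5 higher and 2 lower, where 61.3% did, 30.2% higher and 31.1% lower. The shares of members called are near these backgrounds, and what separates the lines is the direction of single genes. Of the 5 genes called in both lines, SRM, OAZ1, and PAOX moved in the same direction and AMD1 and SMS in opposite directions. Spike-in scaling called 9 genes in MB468, 2 higher and 7 lower, and 6 in MB468res-R8, 5 higher and 1 lower. The background under that scaling was tilted downward in MB468, where 8460 of the 14741 tested genes passed and 30% of these rose. In MB468res-R8 5887 passed, and 47% of these rose.

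Among the synthesis enzymes SRM moved most. It gave 3667, 3595, and 3976 normalized counts in MB468 at 12 h, a log2 fold change of 0.63 (SE 0.050, adjusted p = 1.50e-14 by edgeR). The MB468res-R8 libraries held 9366, 8190, and 8360, a log2 fold change of 0.81 (SE 0.048, adjusted p = 5.48e-18 by edgeR). Every 12 h library lay above every 0 h library of its line, and MB468 at 12 h still lay below MB468res-R8 at any time. The rise was called under spike-in scaling too, at 0.40 and 0.83. The difference between the responses, 0.18 (SE 0.069, adjusted p = 0.0227 by edgeR), was lost without MB468 replicate 2 at 12 h (adjusted p = 0.0515).

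SMS moved in opposite directions in the lines. It gave 4773, 4762, and 4847 normalized counts in MB468 at 12 h, below all 3 libraries at 0 h, a log2 fold change of -0.17 (SE 0.035). In MB468res-R8 it gave 8605, 8519, and 8810, above its libraries at 0 h, 0.57 (SE 0.035). The responses differed by 0.74 (SE 0.050, adjusted p = 4.18e-16 by edgeR's quasi-likelihood test), the largest positive difference among the 10 genes. AMD1 fell in MB468 to 6745, 7183, and 6983 (-0.14, SE 0.039) and rose in MB468res-R8 to 8312, 8996, and 8882 (0.33, SE 0.039), a difference of 0.47 (SE 0.055). ODC1 rose in MB468res-R8 to 5392, 5417, and 5219 (0.33, SE 0.053). In MB468 it gave 5529, 5670, and 5504 and missed the threshold (0.11, adjusted p = 0.0598 by edgeR), although its libraries lay above those at 0 h, and under spike-in scaling its estimate was -0.12. At 12 h ODC1 was the synthesis gene that did not differ by the test between the lines, with a log2 difference of -0.06 and an interval of -0.16 to 0.05.

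MTAP, the phosphorylase that links polyamine synthesis to methionine salvage and that many tumors have lost by deletion, was present in all 24 libraries with 1379 to 2242 normalized counts. At 12 h it gave 1616, 1645, and 1533 in MB468 (log2 fold change -0.07, 95% interval -0.18 to 0.03, not called) and 2195, 2242, and 2112 in MB468res-R8 (0.44, SE 0.050, adjusted p = 8.28e-10 by edgeR). The 3 MB468res-R8 libraries at 12 h were the highest of all 24, and the responses differed by 0.51 (SE 0.071). Under spike-in scaling MTAP was called lower in MB468 (-0.31, adjusted p = 0.0366 by edgeR) and higher in MB468res-R8 (0.46).

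Among the genes of breakdown, SMOX separated the lines. It gave 984, 983, and 938 normalized counts in MB468 at 12 h against 524, 608, and 580 at 0 h (log2 fold change 0.76, SE 0.075, adjusted p = 7.22e-12 by edgeR). In MB468res-R8 it gave 401, 395, and 379 against 420, 492, and 392, which was not called (-0.15, 95% interval -0.32 to 0.02). The difference between the responses was -0.91 (SE 0.112, adjusted p = 4.39e-09 by edgeR's quasi-likelihood test), and SMOX was the 1 gene of the 10 whose response was called lower in MB468res-R8. It was -0.66 and called under spike-in scaling. The rise in MB468 was seen at 12 h and not at 0.5 or 2 h, where the group means were 525 ± 50.6 and 570 ± 5.26 (SD, n = 3).

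SAT1 came down from its 2 h level in both lines. In MB468 it gave 11230, 11204, and 9804 normalized counts at 12 h, below every library at 0 h (log2 fold change -0.27, SE 0.059, adjusted p = 0.000182 by edgeR), and in MB468res-R8 4206, 4328, and 4053 (0.10, 95% interval -0.03 to 0.23, not called). The responses differed by 0.38 (SE 0.085). PAOX gave 11.6, 10.8, and 10.8 in MB468 and 15.2, 6.83, and 10.4 in MB468res-R8 at 12 h, with log2 fold changes of -0.79 (SE 0.347, adjusted p = 0.0402 by edgeR) and -1.23 (SE 0.351, adjusted p = 0.00261 by edgeR). The MB468 call rested on few counts and was lost without replicate 3 at 0 h, without any 1 of the 3 libraries at 12 h, with no filter on low counts (adjusted p = 0.0641), and with a spike-in factor as a covariate (adjusted p = 0.105).

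Of the regulators of ornithine decarboxylase, OAZ1 fell in both lines, with log2 fold changes of -0.28 (SE 0.036) and -0.27 (SE 0.036), with a difference of 0.00 and a 95% interval of -0.10 to 0.11. It gave 11498, 11635, and 11807 normalized counts in MB468 and 10854, 10358, and 10878 in MB468res-R8 at 12 h, and under spike-in scaling the fall in MB468res-R8 was not called (-0.25, adjusted p = 0.0986 by edgeR). AZIN1 gave 17356, 17017, and 15829 in MB468 at 12 h, below its libraries at 0 h (-0.41, SE 0.045), and 20204, 22458, and 21136 in MB468res-R8, overlapping those at 0 h (0.07, 95% interval -0.02 to 0.16). Its responses differed by 0.48 (SE 0.064, adjusted p = 3.75e-08 by edgeR).

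In all, the difference between the 12 h responses was called for 8 of the 10 genes, 7 higher and 1 lower in MB468res-R8, where 56.5% of all genes were called, 26.2% higher and 30.3% lower. The median difference was 0.30 over the 10 genes and -0.05 over all genes. Spike-in scaling, where the median of all genes was 0.20, gave the same split of 7 and 1. It called 5797 of all 14741 tested genes, 69.9% of them higher. The remaining genes, OAZ1 and PAOX, were called under neither scaling. Between the lines at 12 h 8 genes were called, 5 higher and 3 lower, where 73.1% of all genes were, 33.9% higher and 39.2% lower. SRM stood 1.20 (SE 0.048), SMS 0.85 (SE 0.035), MTAP 0.45 (SE 0.049), AZIN1 0.35 (SE 0.045), and AMD1 0.33 (SE 0.039) higher in MB468res-R8, and SAT1 -1.36 (SE 0.061), SMOX -1.30 (SE 0.077), and OAZ1 -0.12 (SE 0.036) on the log2 scale. This comparison shares its libraries with the 12 h responses. The OAZ1 difference lost its call without MB468res-R8 replicate 2 at 12 h and under spike-in scaling, where AMD1 also just missed the threshold (0.28, adjusted p = 0.0509 by edgeR).

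**Figure D4:**
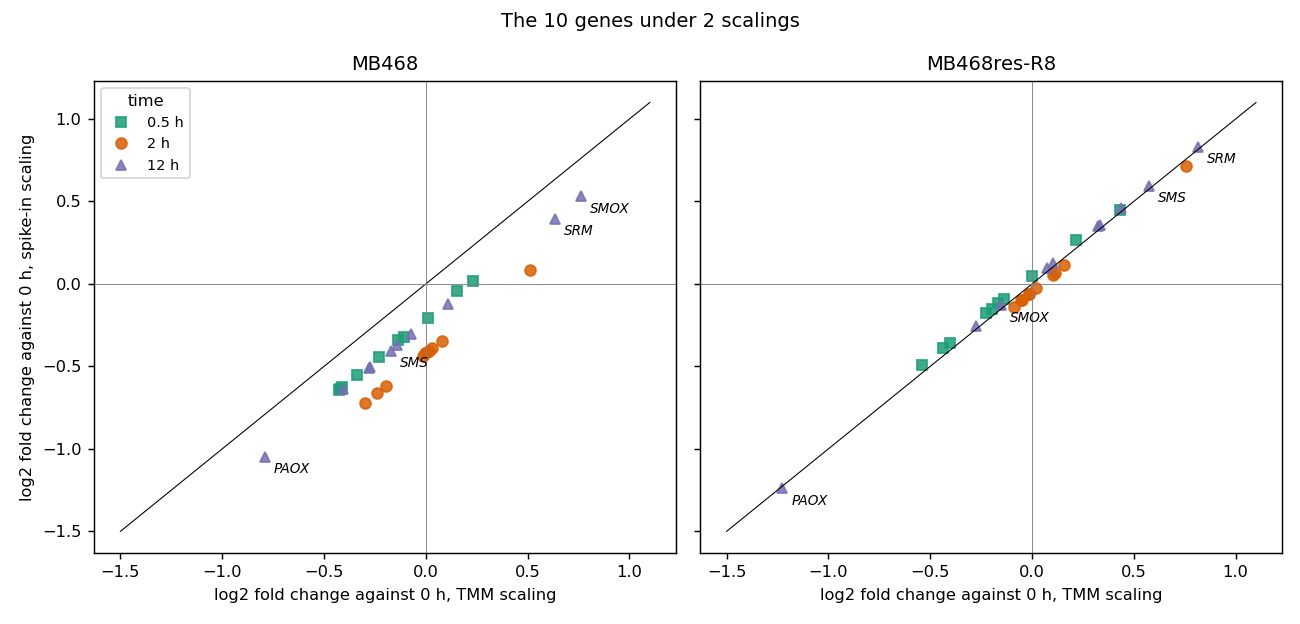
Log2 fold change against 0 h of the 10 genes under TMM scaling (horizontal axis) and spike-in scaling (vertical axis), in MB468 (left) and MB468res-R8 (right), at 0.5 h (squares), 2 h (circles), and 12 h (triangles), with the line of equality. Points of MB468 lie below the line, most at 2 h, and those of MB468res-R8 lie on or near it, and SRM and SMOX in MB468 at 12 h stay above 0 under both.

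Ratios of 2 raw counts within a library do not depend on scaling, and 3 were compared as relative quantities, uncorrected for length. The ratio of ODC1 to OAZ1, the enzyme over its antizyme, was 0.365 ± 0.0220 (SD, n = 3) in MB468 and 0.327 ± 0.0262 in MB468res-R8 at 0 h. It was 0.269 ± 0.0292 and 0.225 ± 0.0128 at 0.5 h, and 0.478 ± 0.0108 and 0.500 ± 0.0218 at 12 h. In both lines the ratio was lowest at 0.5 h and highest at 12 h, and the 12 h libraries lay above those at 0 h (two-sided exact permutation p = 0.1, the smallest that 3 against 3 allows). The log2 ratio rose by 0.39 in MB468 and by 0.61 in MB468res-R8.

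The ratio of AZIN1 to OAZ1, inhibitor over antizyme, was 1.57 ± 0.0313 in MB468 and 1.57 ± 0.0907 in MB468res-R8 at 0 h. At 12 h it was 1.44 ± 0.0871 and 1.99 ± 0.159, lower than at 0 h in every MB468 library and higher in every MB468res-R8 library. The ratio of SAT1 to ODC1, breakdown over synthesis, was 2.52 ± 0.129 in MB468 and 0.925 ± 0.0670 in MB468res-R8 at 0 h. It stood at 3.99 ± 0.217 and 1.56 ± 0.0659 at 0.5 h and at 1.93 ± 0.131 and 0.785 ± 0.0121 at 12 h. Both lines were above 0 h at 0.5 h and below it at 12 h, and MB468 lay above MB468res-R8 at each time. Each 12 h comparison with 0 h gave an exact permutation p of 0.1, the smallest possible.

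**Figure D5:**
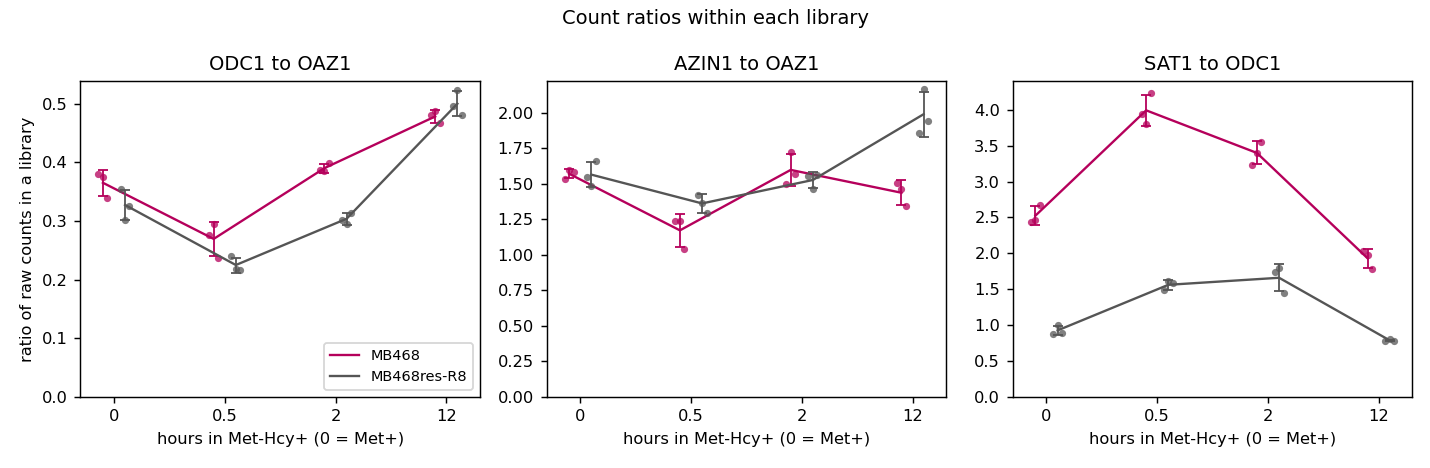
Ratio of raw counts in each library (vertical axes, from 0) for ODC1 to OAZ1, AZIN1 to OAZ1, and SAT1 to ODC1 against hours in Met-Hcy+ medium (0 = Met+, times evenly spaced), with MB468 in magenta and MB468res-R8 in grey. Points are libraries, lines join means, and bars are SD (n = 3). ODC1 to OAZ1 reaches 0.478 and 0.500 at 12 h, and AZIN1 to OAZ1 separates at 12 h to 1.44 and 1.99.

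The order of the 8 groups also differed between the genes. For SAT1 the 4 MB468 groups stood above the 4 MB468res-R8 groups, with 2 h highest in each line, and the neighbours that overlapped were MB468res-R8 at 12 h and 0 h. For SRM the 4 MB468res-R8 groups stood above the 4 MB468 groups, and overlap was found between 0 h and 2 h within each line. For SMOX MB468 at 12 h stood apart at the top and MB468res-R8 at 0.5 h (321 ± 14.0) at the bottom, and the neighbours between them overlapped. Across the 24 libraries, the genes whose log2 CPM was most like that of SAT1 were TES (Pearson r = 0.967), EXOSC8 (0.961), and CYBA (0.960). For SRM they were MRPL32 (0.987), DDX56 (0.986), and ITGA3 (0.978), and for SMOX PVR (0.960), ARFGAP1 (0.959), and INHBB (0.956). These describe 24 libraries that share 2 lines and 4 times.

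Beyond the 10 genes, 33 genes of connected steps were listed, and 28 were tested, since the others did not pass the filter on low counts. Of the 28, 17 were called between the lines at 0 h (7 higher and 10 lower in MB468res-R8), where 53.5% of all genes were. At 12 h 23 were called in MB468 (9 higher and 14 lower), where 70.8% of all genes were, and 22 in MB468res-R8 (10 higher and 12 lower), where 61.3% were. The difference of the 12 h responses was called for 20 (13 higher and 7 lower), where 56.5% of all genes were. Spike-in scaling gave 1 higher and 15 lower at 0 h, 5 and 15 in MB468, 10 and 6 in MB468res-R8, and 13 and 3 for the difference. Over all 14741 tested genes it called 7639, 8460, 5887, and 5797 in the same order, of which 15%, 30%, 47%, and 69.9% were higher. At 0 h AGMAT, an agmatinase-like gene, stood 1.28 higher in MB468res-R8, and SLC7A1, the arginine and ornithine importer, ASS1, argininosuccinate synthase, and the transporter SLC18B1 stood lower, at -0.50, -0.51, and -0.36. DHPS (0.39) and ASL (0.33) were called higher under TMM scaling, and under spike-in scaling they stood at 0.08 and 0.02 and were not called.

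SLC7A1, of the supply genes, and SLC3A2, of the transport genes, moved in opposite directions in the lines at 12 h under both scalings. SLC7A1 rose in MB468 from 9140 ± 275 to 18132 ± 229 normalized counts (log2 fold change 0.99, SE 0.043) and fell in MB468res-R8 from 6474 ± 340 to 4328 ± 72.5 (-0.58, SE 0.044). The responses differed by -1.57 (SE 0.061, adjusted p = 3.13e-23 by edgeR's quasi-likelihood test). SLC3A2, the heavy chain of several amino acid exchangers that has been linked to polyamine export, rose by 1.02 (SE 0.044) in MB468 and stood at -0.51 (SE 0.044) in MB468res-R8, and its responses differed by -1.53 (SE 0.063). ATP13A4, of the family of polyamine-transporting ATPases, differed by -1.39 (SE 0.230), and its relative ATP13A5 fell by -1.27 (SE 0.083) in MB468res-R8. ATP13A5 also fell in MB468, from 815 ± 79.7 to 495 ± 43.1 normalized counts. Of the 8 tested transport genes, 4 rose and 3 fell in MB468, and 3 rose and 4 fell in MB468res-R8, where 36.1% of all genes were called higher and 34.7% lower in MB468 and 30.2% and 31.1% in MB468res-R8. Spike-in scaling gave 2 higher and 3 lower in MB468 and 3 and 3 in MB468res-R8. Under that scaling 8460 of the 14741 tested genes passed in MB468, and 2538 of these, or 30%, rose. In MB468res-R8 5887 passed, and 2766 of these, or 47%, rose. The spike-in percentages are shares of called genes, whereas the TMM percentages are shares of all tested genes.

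Of the 8 tested genes that supply arginine and ornithine, 6 were called lower and 1 higher in MB468 at 12 h, where 34.7% and 36.1% of all genes were. In MB468res-R8 5 were called lower and 2 higher, where 31.1% and 30.2% were. Spike-in scaling gave 6 lower and 1 higher in MB468 and 3 lower and 2 higher in MB468res-R8. Its background, as above, was 2538 genes that rose among 8460 called in MB468 and 2766 among 5887 in MB468res-R8. These are 30% and 47% of the called genes, not of all 14741 tested genes. ASS1 fell in both lines (-1.03, SE 0.054, in MB468 and -0.70, SE 0.055, in MB468res-R8), and so did ARG2, the mitochondrial arginase (-0.41, SE 0.059, and -0.76, SE 0.060). OAT, ornithine aminotransferase, fell in MB468 (-0.58, SE 0.043) and in MB468res-R8 (-0.29, SE 0.042), the latter not called under spike-in scaling. AGMAT rose in MB468res-R8 by 0.97 (SE 0.115), and the response of SLC25A15, the mitochondrial ornithine carrier, was 0.95 higher there than in MB468. OAZ2, a second antizyme, fell in MB468 from 2284, 2249, and 2267 normalized counts to 1134, 1188, and 1229 (-0.94, SE 0.048), and its response was 0.63 higher in MB468res-R8. Among the 4 genes of hypusine, the modification of EIF5A made from spermidine, DOHH rose in MB468 by 1.19 (SE 0.098). DOHH also rose in MB468res-R8, from 535 ± 15.8 to 761 ± 60.0 normalized counts (SD, n = 3). EIF5A itself rose in MB468res-R8 by 0.31 (SE 0.036), its response differing by 0.52 (SE 0.051).

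Downstream of MTAP, methionine salvage runs through MRI1, APIP, ENOPH1, and ADI1. In MB468res-R8 at 12 h ENOPH1 rose by 0.48 (SE 0.055), from 1800 ± 174 to 2519 ± 123 normalized counts, and MRI1 by 0.35 (SE 0.051), while APIP (0.12) and ADI1 (0.09) were not called. In MB468 APIP fell (-0.27, SE 0.093) and ENOPH1 rose (0.13, SE 0.055), and MRI1 (0.09) and ADI1 (-0.08) were not called. Under spike-in scaling ENOPH1 in MB468 turned to -0.11 and was not called, and MRI1 turned to -0.14. The difference between the responses was called for 3 of the 4, where 56.5% of all genes were called, 26.2% higher and 30.3% lower. ENOPH1 at 0.35, APIP at 0.38, and MRI1 at 0.26 were all higher in MB468res-R8, and ADI1 (0.17) was not called. At 0 h ADI1 stood higher (0.44, SE 0.142, with overlapping libraries and not called under spike-in scaling) and MRI1 lower (-0.19, SE 0.051) in MB468res-R8, and APIP (-0.10) and ENOPH1 (0.05) were not called, while under spike-in scaling APIP was called (-0.41) and ENOPH1 turned to -0.26.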

How the data were processed

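Poly(A) RNA of 24 libraries was sequenced with spike-in RNAs. The authors aligned single-end reads with HISAT2 2.1.0 to GRCh38/hg38 and counted them with featureCounts (Subread 1.5.3), and the raw counts they deposited cover 26645 gene entries with 92 spike-ins. The annotation release and the strand setting are not given in the sources used here. The authors' normalized table and table of model results were not used. Without spike-ins, 14741 genes passed filterByExpr at a minimum count of 10 and total of 15, and R 4.3.3 with edgeR 4.0.16 gave each comparison from 1 quasi-likelihood model of 8 group means on TMM sizes, adjusted by Benjamini-Hochberg. SE is the log2 fold change over the square root of F. DESeq2 1.42.0, spike-in totals, a spike-in covariate, other filters, a replicate block, and leaving out each library were alternatives. The spike-in covariate was the first component of the log spike-in counts, not scaled for library size, so that it can follow sequencing depth. The code was tested on simulated data.

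The 10 genes and all lists were chosen with earlier results of these data known. All 10 genes are named. Of the other pathway genes, up to 3 per direction with the smallest p among those called in each comparison, and the 4 salvage genes, are named. Genes of similar pattern were sought among those whose log2 CPM averaged 5 or more. Gene positions and lengths come from GENCODE on GRCh38, and promoters from RefSeq on GRCh38.p14.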

Additional observations from a re-analysis of the deposited data

Results flagged for a closer look

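The response to Met-Hcy+ medium differed between the lines by edgeR's test of the difference itself for 9 results among the 10 genes. At 2 h the response of AMD1 was 0.34 higher in MB468res-R8 on the log2 scale. At 12 h the responses of SMS (0.74), MTAP (0.51), AZIN1 (0.48), AMD1 (0.47), SAT1 (0.38), ODC1 (0.22), and SRM (0.18) were higher in MB468res-R8, and that of SMOX was lower (-0.91). The lines are 1 parent and 1 clone, and the background of called genes at 12 h was 56.5%.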

How the results depend on the processing

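Scaling to spike-in totals changed most. It called 8 genes in MB468 at 2 h (also 8 without replicate 2 of that group), 2 in MB468res-R8 at 0.5 h, 0 in MB468 and 4 in MB468res-R8 between 0.5 and 2 h, and 2 for the line difference at 2 h, higher in MB468res-R8. Of all 14741 tested genes it called 9511 (9492 without replicate 2), 2023, 3696, 2380, and 931 in the same order. It gave 2.52% (1.84%), 59%, 18.3%, 35.5%, and 93% of these as higher. Signs turned under it for SMS at 0 h (-0.20); for OAZ1 (-0.21) and PAOX (-0.045) in MB468 at 0.5 h; for AZIN1 (-0.41), ODC1 (-0.34), SMS (-0.39), and SRM (-0.40) at 2 h, and without replicate 2 at -0.49, -0.35, -0.42, and -0.43; for ODC1 at 12 h (-0.12); for AMD1 (-0.023), MTAP (-0.18), SMOX (-0.080), and SMS (-0.069) between 0.5 and 2 h in MB468. In MB468res-R8 they turned for OAZ1 at 2 h (-0.026) and between 0.5 and 2 h (-0.071). The line difference turned at 0.5 h for OAZ1 (0.25), ODC1 (0.15), SAT1 (0.25), and SMS (0.23), and at 2 h for AZIN1 (0.35), ODC1 (0.21), SMS (0.33), and SRM (0.31), none called. The median shift of all genes given above is part of each of these values.

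With no filter on low counts and with DESeq2's test, the line difference was called for 1 gene at 0.5 h and 2 at 2 h. Over all genes, the fit without the filter called 626 and 951 of 21284 at these times. DESeq2's test called 512 of 12723 and 834 of 12158. Estimates near 0, called neither under the alternative nor in the reported fit, changed sign elsewhere: PAOX between the lines at 12 h (0.017 with DESeq2's size factors and 0.017 with its test), OAZ1 in MB468 at 0.5 h (-0.0013, -0.0022, and -0.00065 with at least 10 counts in every library) and in MB468res-R8 at 0.5 h (-0.013, -0.013, and -0.012), AZIN1 in MB468 at 2 h (-0.0035 and -0.0035, and -0.00039 with a spike-in covariate), and SMOX there (0.0033 with the covariate). The cause was not tested.

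Leaving out 1 library gave 0 to 1 called genes for the line difference at 0.5 h and 1 to 2 at 2 h. Its estimates spanned 0 for PAOX between the lines at 12 h (-0.31 to 0.24) and in MB468 at 0.5 h (-0.0029 to 0.37), OAZ1 in MB468 at 0.5 h (-0.024 to 0.030), 2 h (-0.046 to 0.0095), and between them (-0.046 to 0.011), OAZ1 in MB468res-R8 at 0.5 h (-0.010 to 0.011), AZIN1 at 2 h in MB468 (-0.029 to 0.033) and MB468res-R8 (-0.049 to 0.016), SMOX (-0.071 to 0.046) and SRM (-0.045 to 0.053) in MB468 at 2 h, and MTAP between 0.5 and 2 h (-0.011 to 0.081). It did so for the line difference of AMD1 (-0.0032 to 0.068), OAZ1 (-0.029 to 0.025), and SAT1 (-0.037 to 0.034) at 0.5 h and AZIN1 (-0.050 to 0.016) at 2 h.

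In no comparison did the deviations of all 3 same-numbered pairs correlate above 0.1, although 2 of the 3 did in MB468res-R8 at 2 h and 0 h (-0.034, 0.46, and 0.39) and in MB468 at 0.5 h and 0 h (-0.082, 0.18, and 0.13). With the replicate number as a block, all 17 counts were as without it and none of 130 estimates changed its call, while SMOX in MB468 at 2 h turned to 0.0026. The counts of pathway genes stayed within 1.5 times and the direction of each count ratio was the same without any 1 library. With 3 libraries a group, PAOX, at 6.83 to 44.2 normalized counts, could show only large changes.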
